A study of Mus musculus with 36 samples.

Results

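The endothelial adhesion and leakiness genes followed here are 10 genes, chosen by symbol from the 20717 nuclear genes of the deposited tables: the selectins Selp and Sele, the immunoglobulin-family adhesion molecules Icam1, Icam2, Vcam1 and Pecam1, the clotting factor Vwf, the diaphragm protein Plvap, and the junction proteins Cldn5 and Cdh5. All 10 were present in the files. No measured value entered the choice of the symbols, although earlier results of these data were known when they were listed.

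Single cells of the mouse heart were sorted into multi-well plates and profiled by SORT-seq, which counts the 3′ ends of transcripts by unique molecular identifiers (UMIs), so that 1 well holds 1 cell. All animals were male C57BL/6 mice of 8 weeks, and the tissue was the infarcted region of the left ventricle or, after sham surgery, the same region. The sham groups were collected on day 1 (4 plates) and day 14 (8 plates). In ischemia-reperfusion (IR) the left anterior descending coronary artery was tied for 1 hour and then released, and tissue was taken on day 1 (9 plates), day 3 (7 plates) and day 14 (3 plates). In myocardial infarction (MI) the same artery was tied for good, and tissue was taken on day 3 (5 plates). No agent or allele other than the surgery was used. The sort selected living single cells by scatter, with no marker of endothelium. No sample analysed here is labelled as a day 3 sham, so both day 3 groups were compared with the equally weighted mean of the sham groups, and the MI plates carry a surgery and protocol label of their own, so that batch and MI cannot be told apart.

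Endothelium lines every vessel of the heart. When it is activated, it catches leukocytes from the blood in steps: selectins on its surface let them roll, ICAM and VCAM proteins bind their integrins so that they stop, and PECAM1 takes part in their passage between cells. P-selectin and von Willebrand factor are stored together in Weibel-Palade bodies and released on stimulation, whereas E-selectin has to be newly transcribed. VE-cadherin (Cdh5) and claudin-5 (Cldn5) hold neighbouring endothelial cells together, and PLVAP forms the diaphragms of fenestrae and caveolae in permeable vessels. In the capillaries of the adult heart PLVAP is normally low.

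Selp and Sele lie on chromosome 1 of GRCm38.p6. Sele spans chr1:164039614-164058487 and Selp spans chr1:164115264-164150026, both on the plus strand. Icam1 lies on the plus strand at chr9:21015940-21028814, with Icam4 starting 617 bases after its end. The others were Icam2 (chr11:106377656-106388139, minus strand), Vcam1 (chr3:116110020-116129688, minus), Vwf (chr6:125552948-125686679, plus), Plvap (chr8:71497753-71511806, minus), Cldn5 (chr16:18776847-18778262, plus), Cdh5 (chr8:104101613-104144504, plus) and Pecam1 (chr11:106654213-106715281, minus).

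Promoter sequences of 4 of the 10 genes (Selp, Sele, Icam1 and Cldn5) were present in the RefSeq promoter table for this build, each reaching from 250 bases before the annotated start to 50 bases after it. Those of the selectins and Icam1 are shown because these genes are known as cytokine-inducible in endothelium and include the member whose level rose after both injuries. They lie at chr1:164115014-164115313 (Selp), chr1:164047984-164048283 (Sele, a start inside the gene record) and chr9:21015690-21015989 (Icam1), all on the plus strand and written 5′ to 3′. Capitals mark matches, on either strand, to 5 short motifs. The AP-1 motif was searched as TGANTCA, the core that ETS factors bind as GGAAG, and the core that GATA factors bind as GATAA. The promoter element called the TATA box was searched as TATAAA, and the element called the GC box, bound by SP-family factors, as GGGCGG.
Selp: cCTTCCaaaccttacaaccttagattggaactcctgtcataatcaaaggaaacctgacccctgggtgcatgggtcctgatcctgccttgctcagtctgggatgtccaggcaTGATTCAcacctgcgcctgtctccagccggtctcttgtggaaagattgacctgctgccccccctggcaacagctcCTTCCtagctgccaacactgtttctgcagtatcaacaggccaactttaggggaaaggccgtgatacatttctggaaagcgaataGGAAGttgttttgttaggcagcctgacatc
Sele: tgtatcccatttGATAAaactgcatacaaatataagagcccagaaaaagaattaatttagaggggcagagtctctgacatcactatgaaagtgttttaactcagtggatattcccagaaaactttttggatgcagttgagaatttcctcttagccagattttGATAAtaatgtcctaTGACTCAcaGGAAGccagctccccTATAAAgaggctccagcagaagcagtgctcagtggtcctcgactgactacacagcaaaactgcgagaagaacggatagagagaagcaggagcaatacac
Icam1: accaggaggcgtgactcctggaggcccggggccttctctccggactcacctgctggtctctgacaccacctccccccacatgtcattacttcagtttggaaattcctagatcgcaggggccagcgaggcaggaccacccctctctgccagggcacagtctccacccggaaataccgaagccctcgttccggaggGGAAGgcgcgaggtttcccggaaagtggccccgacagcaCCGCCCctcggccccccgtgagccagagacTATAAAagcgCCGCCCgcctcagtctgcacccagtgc
The AP-1 letters were present in both selectin windows and in 7.93% of the 27025 promoters of the table. Sele held 2 GATAA matches (25.8% of promoters hold at least 1) and a TATAAA 49 bases before its start (14.2%), and Icam1 held a TATAAA and 2 GC boxes (35.9% of promoters). GGAAG was present in all 3 windows and in 71.1% of promoters. The NF-kB consensus was searched under its name, and its letters are not given here. It was found in 4.35% of promoters and not in these windows. Sites that differ from the consensus would be missed, so this does not show that the windows lack NF-kB sites.

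Of 13824 wells in 36 tables, 3146 held at least 1000 UMIs of nuclear genes and were clustered without the 10 genes, and clusters were named by marker lists that do not hold them either. This gave 339 endothelial-like, 630 macrophage-like, 335 fibroblast-like, 1153 cardiomyocyte-like, 157 neutrophil-like, 21 mural-like and 511 unnamed wells. Total UMIs per plate ranged from 176614 to 5551870, and 2 tables of the sham day 14 group (replicates 2 and 7) were found to be the same plate (Spearman correlation of well depths 0.91). They were counted as 1 sample, which left 331 endothelial-like wells. Between other plates, up to 17 wells of a pair were copies of each other, most of them among IR day 1 plates and between sham day 14 replicate 2 and IR day 3 replicate 6. Leaving the copied wells out changed no call given here.

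All 13 endothelial markers were detected in the endothelial-like wells of every group. Their summed level fell from 21315 CPM (UMIs of a gene per 1000000 UMIs) in sham day 1 and 17547 CPM in sham day 14 to 14387, 12348 and 15233 CPM in IR day 1, 3 and 14 and 9561 CPM in MI. MI wells were also deeper, with a median of 16726 UMIs against 2987 to 3886 in the other groups. Their share of mitochondrial UMIs was a median of 10.4%, against 28.1% to 40.3% elsewhere. Cardiomyocyte markers, 8 genes, summed to 8629 and 15349 CPM in the sham groups, 2403, 10399 and 13774 CPM in IR day 1, 3 and 14 and 137 CPM in MI. Fibroblast markers, 9 genes, summed to 593 and 654 CPM in the sham groups, 414, 1495 and 834 CPM in IR day 1, 3 and 14 and 1446 CPM in MI. Macrophage markers summed to 327 and 641 CPM in sham, 249, 947 and 135 CPM in IR and 581 CPM in MI. The part of these values in the results below was not tested.

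Most of the 10 genes marked endothelium although they had not been used to find it. Over all groups, between 68.0% and 81.6% of the UMIs of Selp, Icam2, Vwf, Plvap, Cldn5, Cdh5 and Pecam1 lay in endothelial-like wells, which were 331 of the 3101 wells kept. Pecam1 (1257 CPM) and Cdh5 (979 CPM) were the most abundant there, and were present in 92.1% and 90.3% of endothelial-like wells (median 4113 UMIs) against 6.21% and 4.96% of cardiomyocyte-like wells (median 2303 UMIs), which should lack them. Plvap reached 622 CPM in 21.1% of endothelial-like wells and Vwf 504 CPM in 25.1%. Selp (163 CPM) was present in 9.97% of them and in 0.532% of cardiomyocyte-like wells.

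The 3 remaining genes were shared with other classes. Vcam1, the counter-receptor of the leukocyte integrin VLA-4, had 77.3% of its UMIs in fibroblast-like wells (145 CPM, 51.7% of wells). Another 13.6% lay in endothelial-like wells (79.9 CPM, 15.4% of wells). MI gave 1092 of the 1300 UMIs in fibroblast-like wells. Plate means were 53.6 CPM in fibroblast-like and 64.9 CPM in endothelial-like wells in IR day 1, and 72.9 and 192 CPM in IR day 14. In the sham groups, IR day 3 and MI the fibroblast-like mean was the higher. Icam1, which binds the integrins LFA-1 and Mac-1, had 37.2% of its UMIs in macrophage-like, 33.1% in fibroblast-like and 21.8% in endothelial-like wells, and its level was 50.6, 57.7 and 119 CPM in these. Sele had 103 UMIs in all, of which 31 were in endothelial-like, 24 in fibroblast-like, 22 in mural-like and 18 in macrophage-like wells. The 21 mural-like wells also held Cdh5, Pecam1 (465 CPM), Icam2 (171 CPM) and Cldn5 (135 CPM), and 10 of these wells had more UMIs of another class's markers than of mural markers. These class levels are pooled over groups of unequal depth and are descriptions.

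**Figure D1:**
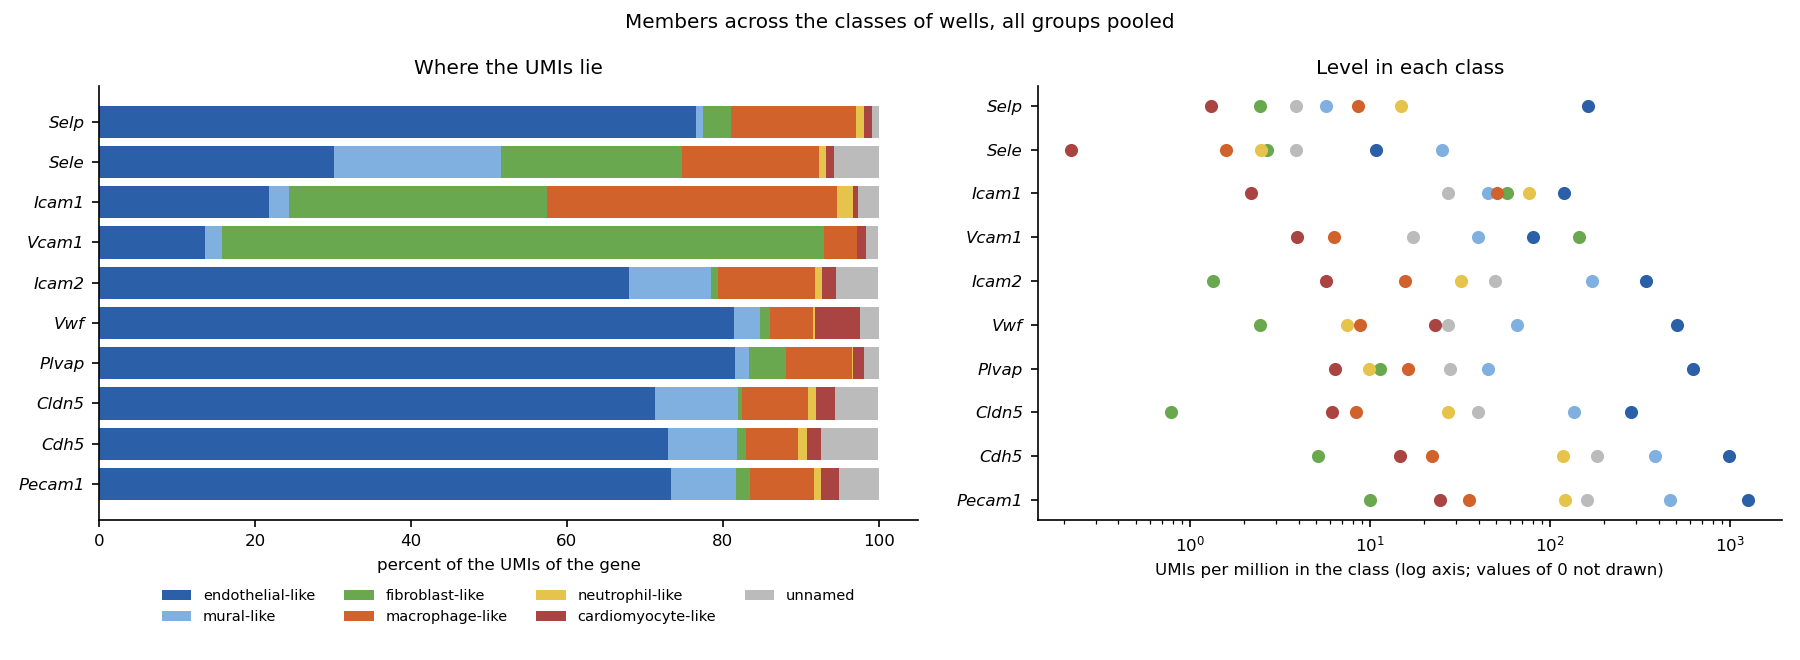
Left, the share of each gene's UMIs (percent) that lay in each class of wells. Right, the level of each gene in each class in CPM (log axis, zeros not drawn), all groups pooled. Vcam1 is the gene with 77.3% of its UMIs in fibroblast-like wells, and Icam1 is divided among macrophage-like, fibroblast-like and endothelial-like wells.

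Within the endothelial-like wells the members followed 2 clusters. Cluster 4 (214 wells) was led by Cd300lg, Slc26a10, Ly6c1, Sdpr and Fabp4. Cluster 10 (117 wells) was led by Plvap, Mest, Igf2, Vwf and Apln, and Cytl1, an endocardial marker, was also among its 10 leading genes. Plvap and Vwf thus head the list of cluster 10 without having been among the clustering genes, but they were counted in the same wells, so the differences that follow are descriptions. Cluster 10 held 7.06% of the endothelial-like wells of sham day 1 (6 of 85), 5.45% of sham day 14 (3 of 55), 60.0% after 1 day of IR (42 of 70), 40.7% after 3 days (11 of 27), 7.89% after 14 days (3 of 38) and 92.9% after MI (52 of 56). Different clusters therefore made up most of the class in different groups. IR day 1 or MI against sham compares mainly cluster 10 with cluster 4 wells, and IR day 14 against sham mainly cluster 4 wells with each other.

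The adhesion and leakiness genes differed in how far they divided the clusters. Pooled over groups, Selp was at 12.8 CPM in cluster 4 and 266 CPM in cluster 10, Plvap at 47.0 and 1019 CPM, Vwf at 148 and 750 CPM, and Sele at 1.71 and 17.1 CPM. Icam1 was at 64.9 and 156 CPM, and Vcam1 at 37.6 and 109 CPM. The other 4 genes were closer, with Icam2 at 324 and 351 CPM, Pecam1 at 1104 and 1363 CPM, Cldn5 at 313 and 256 CPM and Cdh5 at 1171 and 847 CPM. The junction genes Cldn5 and Cdh5 had a lower pooled level in cluster 10. A UMI of Cldn5 was nevertheless found in 53.8% of cluster 10 wells and 48.1% of cluster 4 wells (median 6153 and 3415 UMIs). MI held 1130045 of the 1696273 UMIs of cluster 10, so these pooled levels mix group and cluster.

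The few cluster 10 wells of the uninjured heart already carried Plvap and Vwf. The 6 such wells of sham day 1 had 24 UMIs of Plvap and 27 of Vwf, and the 3 of sham day 14 had 50 and 75. The 79 and 52 cluster 4 wells of these groups had no UMI of Plvap. In cluster 10 wells Plvap was at 743 and 2040 CPM in the sham groups, 358, 245 and 1466 CPM in IR day 1, 3 and 14 and 1270 CPM in MI. Vwf was at 835 and 3060, 324, 209 and 5769, and 695 CPM in the same order. In cluster 4 wells Plvap was at 222, 226 and 26.7 CPM in IR and 23.9 CPM (1 UMI) in MI. Selp was nearly absent from the cluster 10 wells of both sham groups, with 1 UMI in the 6 wells and 1 in the 3 wells. In cluster 10 wells of IR day 1 Selp reached 82 UMIs (213 CPM) and in those of MI 365 UMIs (323 CPM), against 1 UMI (12.3 CPM) in IR day 3 and 2 UMIs (47.3 CPM) in IR day 14. Of the 82 UMIs of IR day 1, 53 were in 1 well, and of the 365 of MI, 231 were in 1 well. With 3 UMIs as the smallest count taken as detected, the 6 sham day 1 wells could not show a level under 92.8 CPM and the 3 sham day 14 wells none under 122 CPM.

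Selp UMIs were found in few wells. In cluster 10, 27 of 117 wells had a Selp UMI, and 25 of these also had Plvap, 20 had Vwf, 20 had Icam1, 17 had Vcam1 and 7 had Sele. In cluster 4, 6 of 214 wells had a Selp UMI, and of these 4 had Vwf, 3 Icam1, 2 Plvap, 1 Vcam1 and 0 Sele. Of the 27 in cluster 10, 7 had a UMI of Cldn5, which was present in 63 of the 117 wells. Vwf and Plvap were found together in 42 wells, of 49 with Vwf and 58 with Plvap, while Plvap and Cldn5 were found together in 27, of 58 and 63. Deeper wells show more genes of every kind, so these counts were not tested.

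**Figure D2:**
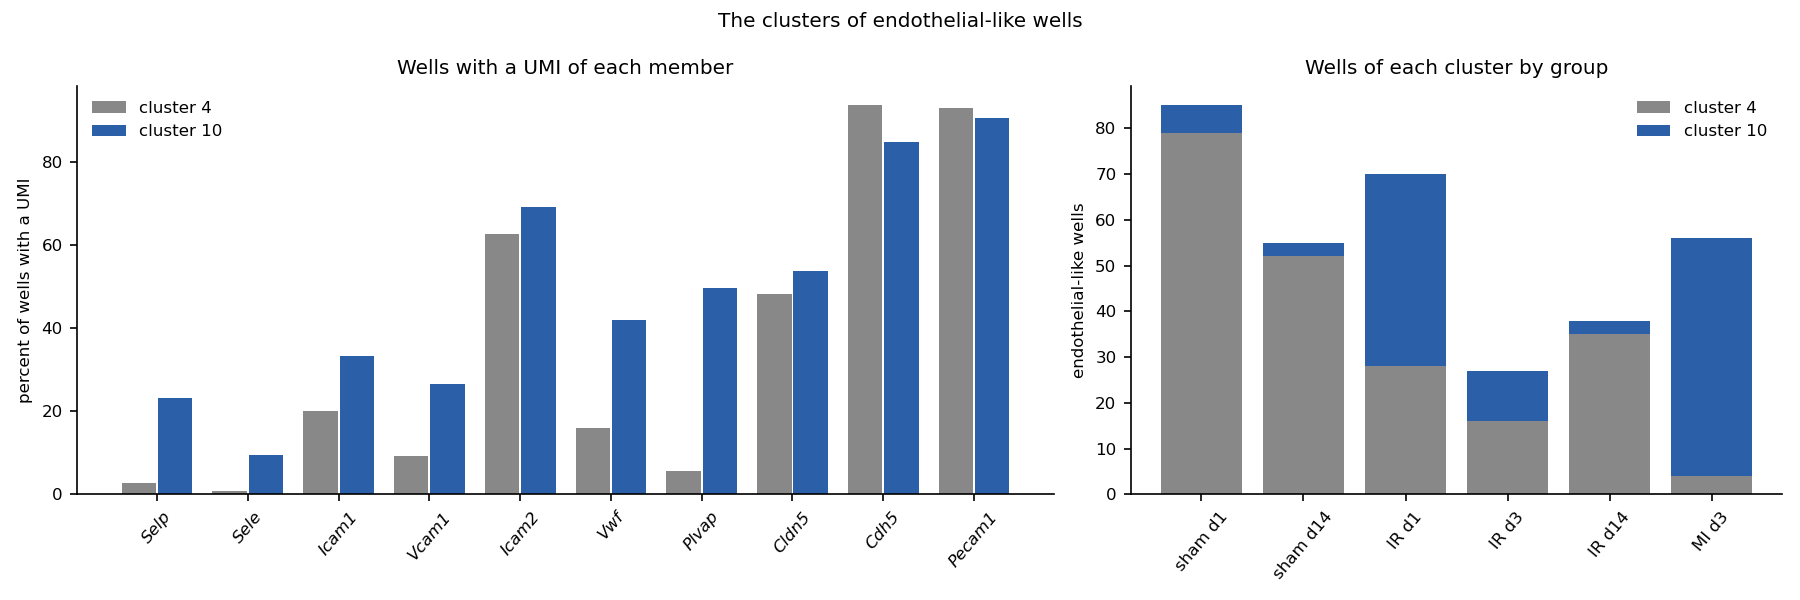
Left, percent of wells of cluster 4 (grey, 214 wells) and cluster 10 (blue, 117 wells) with at least 1 UMI of each gene, all groups pooled. Right, number of endothelial-like wells of each cluster in each group. Selp, Sele, Vwf and Plvap are found in a larger share of cluster 10 wells, while Cdh5 and Pecam1 are in over 84% of wells of both, and cluster 10 makes up 52 of 56 wells in MI and 42 of 70 in IR day 1.

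To compare groups, UMIs were summed per plate over the endothelial-like wells of plates with at least 5 of them. This left 4 plates in each sham group, 8, 2 and 3 plates in IR on days 1, 3 and 14, and 5 plates in MI, with 17413 to 419170 UMIs per sum. The sums were tested with edgeR's quasi-likelihood test over 3955 genes, and adjusted p-values are Benjamini-Hochberg values over all of them. Sele was too low for the gene filter and was not tested, so 9 of the 10 genes were. The labels tie no plate to a mouse, and the MI group had more plates than animals by the study's own account. At least some of these plates therefore share an animal, and the p-values, which measure the spread between plates, may be too small.

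One day after reperfusion, Selp was the member that rose. It was at 0, 21.2, 12.6 and 0 CPM in the 4 sham day 1 plates and at 0 to 334 CPM in the 8 IR day 1 plates, with a median of 31.4 CPM. The groups overlapped, since 3 of the 8 IR plates had no Selp UMI and the other 5 lay above the highest sham plate. Its log2 fold change was 3.62 (SE 1.05; adjusted p = 0.0232, edgeR quasi-likelihood). P-selectin was thus the single one of 9 genes tested that was called, against 4.96% of all 3955 genes called higher and 5.34% called lower. It passed the gene filter in the fit over all 6 groups. With only IR day 1 and sham day 1 fitted, it was too low to be tested.

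This rise in Selp rested on few cells and plates. Of the 86 Selp UMIs of IR day 1, 53 came from 1 well of replicate 7, and without it the pooled level was 64.3 CPM. Without replicate 7 the log2 fold change was 2.91 (adjusted p = 0.108), and without sham replicates 1, 3 or 4 the adjusted p was 0.0701, 0.0728 and 0.0647 (edgeR in each). DESeq2 gave an adjusted p of 0.1 and plates with at least 10 wells 0.0895. With the replicate number of the labels as a block, the log2 fold change was 0.98 (adjusted p = 0.718). When each well was thinned to 1000 UMIs, 7.14% of IR day 1 wells held Selp (11.4% unthinned), against none of 85 sham day 1 wells (4.71% unthinned).

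Plvap fell just short of the threshold on the same day and was not called. It was at 195, 0, 25.2 and 0 CPM in sham day 1 and at 0 to 1551 CPM in IR day 1 (median 264 CPM), so 6 of 8 IR plates were above the highest sham plate. The log2 fold change was 2.68 (SE 0.90; adjusted p = 0.0507). It was called in 9 of 26 alternative settings, among them the one without sham replicate 1 (the plate at 195 CPM), which moved the log2 fold change to 4.54 (adjusted p = 0.011). It was 1.94 with wells holding more markers of another class left out and 1.99 with the replicate block. Icam1 was at 97.7, 42.4, 71.3 and 43.8 CPM in sham day 1 and at 34.3 to 620 CPM in IR day 1 (median 129 CPM), with a log2 fold change of 1.59 (SE 0.61; adjusted p = 0.0902), and 5 of 8 IR plates were above the highest sham plate.

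The remaining members showed no called change on day 1. Vwf (log2 fold change 0.96, 95% interval -0.77 to 2.69) and Vcam1 (0.88, -0.66 to 2.43) had wide intervals. Those of the junction and constitutive genes were narrower: Cdh5 -0.18 (-0.69 to 0.33), Cldn5 -0.16 (-0.89 to 0.57), Icam2 -0.30 (-0.89 to 0.29) and Pecam1 0.30 (-0.18 to 0.78). Sele, the inducible selectin, was listed at 0 UMIs in all 4 sham day 1 plates, where 516261 UMIs allow up to 5.81 CPM. In IR day 1 it had 6 UMIs spread over 5 of 8 plates, a pooled level of 11.2 CPM with an exact Poisson interval of 4.12 to 24.4 CPM. These intervals cover counting error only.

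On day 3 of IR none of the 9 genes tested was called by edgeR, none had an unadjusted p under 0.05 (526 of 3955 genes had), and DESeq2 called none (background 1.52% of genes called higher and 0.0506% lower). Only 2 plates with 17 wells in all entered this group, and the intervals were wide. Selp was at 9.73 and 0 CPM in these plates and Icam1 at 48.6 and 47.8 CPM, both within the range of the 8 sham plates. Plvap was at 146 and 478 CPM, with the second plate above the highest sham plate (328 CPM), and its log2 fold change was 1.22 (95% interval -0.92 to 3.36). The fitted values of the others were 0.21 for Selp (-4.59 to 5.01), -0.52 for Icam1 (-2.59 to 1.55), -0.82 for Icam2 (-1.70 to 0.07), 0.12 for Vcam1 (-2.10 to 2.34) and 0.21 for Vwf (-2.20 to 2.62). For the junction genes they were -0.32 for Cldn5 (-1.35 to 0.72), -0.31 for Cdh5 (-1.03 to 0.41) and 0.25 for Pecam1 (-0.37 to 0.87). Sele was listed at 0 in IR day 3, where the 27 endothelial-like wells held 147799 UMIs.

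On day 14 of IR no member passed the test, and Vcam1 and Cdh5 did not overlap between the groups. Vcam1 was at 362, 96.7 and 118 CPM in the 3 IR day 14 plates and at 32.9, 94.9, 0 and 54.7 CPM in the 4 sham day 14 plates. Cdh5 was at 1030, 1274 and 1229 CPM against 844, 868, 563 and 301 CPM. Every IR plate lay above every sham plate, as in 2.5% of all genes tested. The log2 fold changes were 2.06 (SE 0.85) for Vcam1 and 0.94 (SE 0.34) for Cdh5, with an adjusted p of 0.949 for each (edgeR). edgeR and DESeq2 called no member and 0.0% of all 3955 genes here, and at an unadjusted p under 0.05 there were 195 genes, 2 of them members.

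The neighbouring comparisons bear on both day 14 differences. Cdh5 was also lower in sham day 14 than in sham day 1, where it was at 1085, 1623, 1140 and 1205 CPM, so that these sham plates did not overlap either, as in 2.15% of all genes tested (log2 fold change -1.07, SE 0.31; adjusted p = 0.654). The pooled Cdh5 level in IR day 14, 1118 CPM, lay between the sham levels of 1230 CPM on day 1 and 759 CPM on day 14. For Vcam1, 49 of the 70 UMIs of IR day 14 came from 1 well of replicate 1, and without it the pooled level was 90.4 CPM against 52.3 CPM in sham day 14. The same well held 209 of the 341 Vwf UMIs of the group. Vwf itself was at 1919, 451 and 0 CPM in IR day 14 and at 789, 67.8, 76.8 and 410 CPM in sham day 14 (log2 fold change 1.25, SE 0.94; adjusted p = 0.949).

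Selp was again low on day 14, at 49.1, 0 and 0 CPM against 10.96, 0, 0 and 0 CPM in sham. Plvap was at 417, 0 and 0 CPM, within the range of the sham day 14 plates (0 to 328 CPM) but for 1 plate. The log2 fold changes were 2.37 for Selp (95% interval -1.73 to 6.47) and -0.22 for Plvap (-2.12 to 1.68). Icam1 averaged 166 CPM in IR and 67.6 CPM in sham day 14, with a log2 fold change of 1.33 (-0.23 to 2.90). Those of Icam2 (-0.10, -0.89 to 0.69), Cldn5 (0.13, -0.80 to 1.06) and Pecam1 (0.42, -0.19 to 1.02) were smaller, and Sele had 2 UMIs in 1 of the 3 IR plates. Without IR replicate 1, the fitted values of Selp and Vwf were -2.18 and -0.46. Whether the IR effect differed between day 14 and day 1 was tested directly. For Selp the difference in log2 fold change was -1.25 (95% interval -8.56 to 6.06; adjusted p = 0.932) and for Plvap -2.91 (-5.51 to -0.30; adjusted p = 0.367). edgeR and DESeq2 called none of the 9 genes in this test, in which 0.48% of all genes were called higher and 0.101% lower, and 2 members (Plvap and Cdh5) had an unadjusted p under 0.05, as had 479 of the 3955 genes. The differences for the other members were -0.25 for Icam1, 0.20 for Icam2, 1.17 for Vcam1, 0.29 for Vwf and for Cldn5, 1.12 for Cdh5 and 0.11 for Pecam1.

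After permanent ligation 2 members, Selp and Plvap, were called higher than in sham. Selp was at 658, 48.4, 7.29, 241 and 325 CPM in the 5 MI plates, and 0 to 21.2 CPM in the 8 sham plates. Of the MI plates, 4 were above the highest sham plate. The log2 fold change against the sham groups was 5.04 (SE 0.91; adjusted p = 5.18e-05, edgeR quasi-likelihood). Plvap was at 1522, 792, 175, 1945 and 899 CPM in MI and at 0 to 328 CPM in sham, and the same number of MI plates, 4 of 5, exceeded every sham plate. Its log2 fold change was 3.34 (SE 0.67; adjusted p = 0.000201).

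These were the 2 members called of 9 tested in MI, both higher, beside a background of 16.9% of genes called higher and 13.8% called lower. Selp was called in 28 of 28 alternative settings in which it was tested. Its log2 fold changes ran from 4.15 (without MI replicate 1) to 6.14 (without sham day 14 replicate 1). With only the groups compared it was too low to be tested. Plvap was called in 29 of 29, from 2.36 (sham day 14 alone) to 4.32 (sham day 1 alone), and at 4.28 without sham day 1 replicate 1. The plate values were uneven, and 231 of the 365 Selp UMIs came from 1 well of replicate 1. Without that well the pooled level was 122 CPM, against 9.69 CPM in sham day 1 and 4.36 CPM in sham day 14. For Plvap the best well, also of replicate 1, held 394 of 1436 UMIs, and the pooled level without it was 952 CPM, against 46.5 and 218 CPM. In wells thinned to 1000 UMIs, 28.6% of MI wells held Plvap (58.9% unthinned), against 1.18% and 3.64% in the sham groups (4.71% and 5.45% unthinned), and 10.7% held Selp (28.6% unthinned), against 0.0% and 1.82%.

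Sele had a UMI in all 5 MI plates, at 2.39, 3.02, 7.29, 45.0 and 225 CPM, and was listed at 0 in all 8 sham plates. The groups did not overlap, as in 6.78% of the genes tested, but the 3 lower MI plates had 1 UMI each, under the 3 UMIs taken as detected, and the other 2 had 11 and 9. Pooled over the group, 23 UMIs gave 19.6 CPM (exact Poisson interval 12.4 to 29.5 CPM), where the sham totals of 516261 and 229325 UMIs allow up to 5.81 and 13.1 CPM. MI wells were deeper than sham wells, so plates with 0 and plates with 1 UMI are hard to tell apart. Sele passed in the 2 alternatives that tested it, with no gene filter (adjusted p = 0.000188, edgeR) and with wells holding more markers of another class left out.

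Vwf and Pecam1 stood near the threshold in MI. Vwf was at 346, 417, 58.3, 1900 and 724 CPM in MI and at 0 to 789 CPM in sham, so that 1 of 5 plates exceeded the highest sham plate (log2 fold change 1.68, SE 0.70; adjusted p = 0.0654). It passed in 10 of 29 alternatives. Without MI replicate 4, the plate at 1900 CPM, the log2 fold change was 0.76 (adjusted p = 0.47), with at least 2000 UMIs per well 0.85, and against sham day 14 or day 1 alone 0.97 or 2.40. Pecam1 was at 1372, 1248, 1538, 1684 and 1174 CPM, and at 789 to 1194 CPM in sham, and 4 of 5 MI plates were above every sham plate (log2 fold change 0.55, SE 0.22; adjusted p = 0.0559). It passed in 7 of 29.

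The other 5 genes tested were not called in MI. Icam1 (log2 fold change 0.72, 95% interval -0.36 to 1.79) and Vcam1 (0.90, -0.35 to 2.14) leave room for changes in either direction. Those of Cdh5 (-0.15, -0.63 to 0.33), Icam2 (0.13, -0.41 to 0.66) and Cldn5 (-0.36, -1.03 to 0.30) were the narrowest. Cdh5 was at 0.38 against sham day 14 alone, and Icam2 at -0.12 against sham day 1 alone, neither of them called. The 9 genes tested had a median log2 fold change of 0.72 in this comparison, against 0.08 for all genes tested. Only Selp was called both in IR day 1 and in MI, and these comparisons share the sham day 1 plates.

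**Figure D3:**
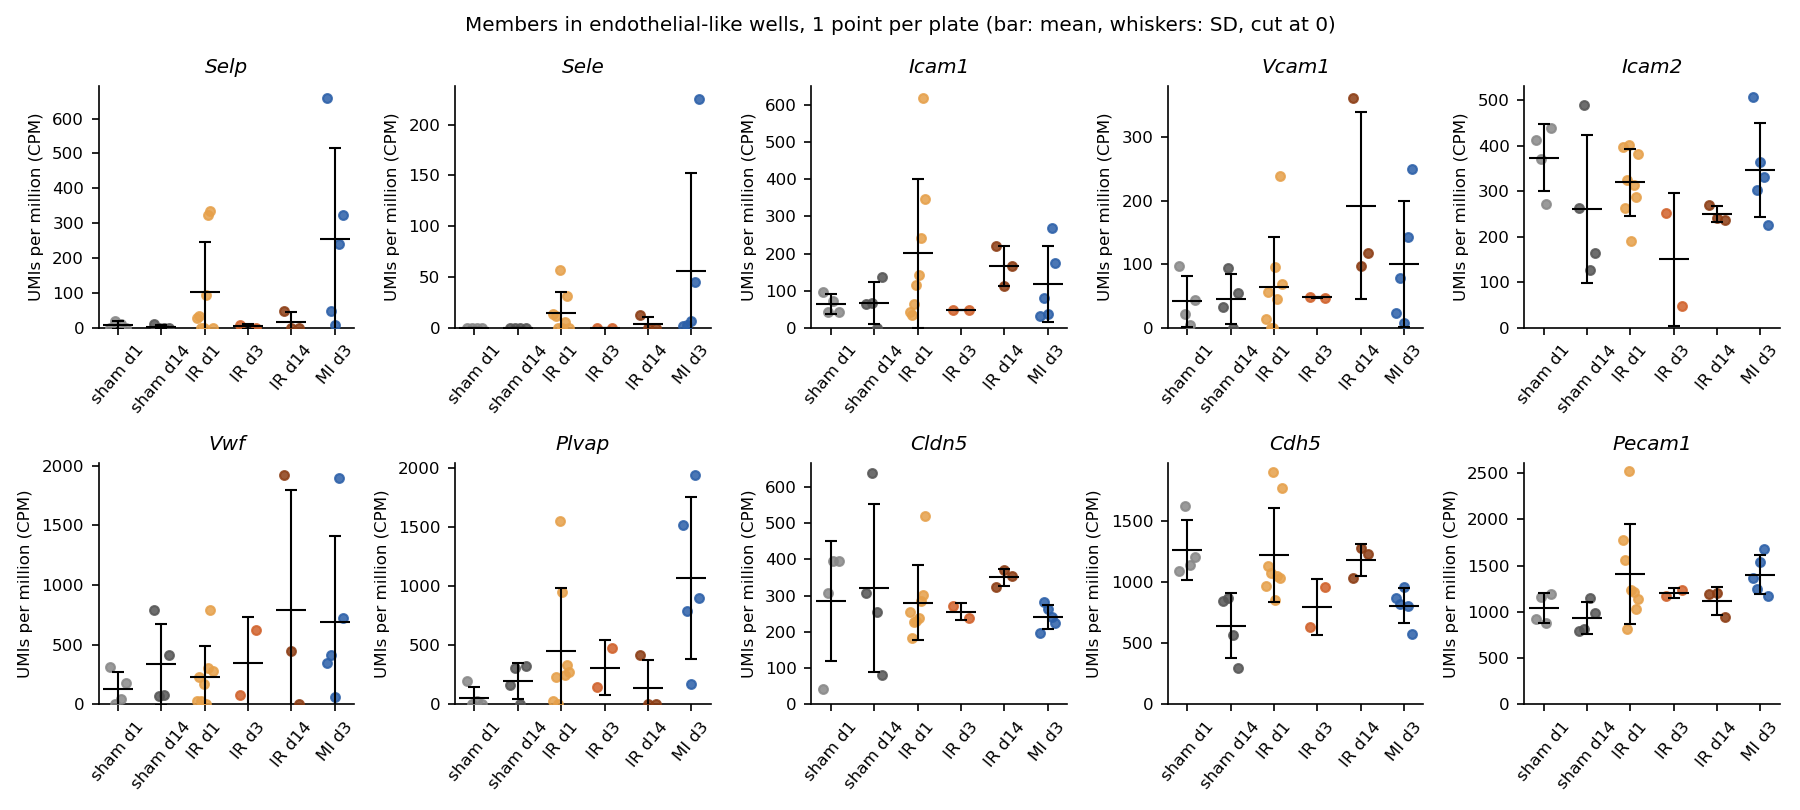
Level of each gene in endothelial-like wells in CPM, 1 point per plate with at least 5 such wells, with the mean (bar) and SD (whiskers, not drawn below 0) of each group. Selp and Plvap are highest in MI (means 256 and 1067 CPM), Selp and Icam1 have a few high plates in IR day 1, and Cdh5 is lowest in sham day 14 (mean 644 CPM).

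Permanent and temporary ligation were also compared on day 3. No member was called by edgeR or DESeq2 (background 0.253% higher and 2.23% lower), and 2, Selp and Icam2, had an unadjusted p under 0.05, as had 450 of the 3955 genes. The mean level of Selp was 256 CPM in MI and 4.86 CPM in IR day 3, with a log2 difference of 4.84 (95% interval 1.42 to 8.25; adjusted p = 0.192). It was called with no gene filter, with plates of at least 1 well and with the replicate block. Icam2, a constitutive ligand of LFA-1, averaged 346 and 150 CPM (log2 difference 0.94, 0.04 to 1.85; adjusted p = 0.436). For Plvap the difference was 2.12 (-0.08 to 4.32; adjusted p = 0.488). The other fitted differences were 1.24 for Icam1 (-0.79 to 3.26), 0.78 for Vcam1 (-1.39 to 2.94), 1.48 for Vwf (-0.99 to 3.94), -0.05 for Cldn5 (-1.11 to 1.02), 0.16 for Cdh5 (-0.59 to 0.90) and 0.30 for Pecam1 (-0.37 to 0.97), and Sele was not tested. Only 2 IR plates entered, and the intervals were wide.

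The sham groups themselves differed in no called member between day 14 and day 1 by edgeR or DESeq2, and 0.0% of all genes were called by edgeR. Cdh5, described above, was the member with an unadjusted p under 0.05, which held for 250 of the 3955 genes. Plvap averaged 201 ± 153 CPM (SD, n = 4) on day 14 and 55.1 ± 94.2 CPM (SD, n = 4) on day 1, with a log2 difference of 1.96 (95% interval -0.03 to 3.95). The other log2 differences were -1.03 for Selp (-5.46 to 3.40), 0.03 for Icam1 (-1.55 to 1.61), -0.49 for Icam2 (-1.19 to 0.21), 0.45 for Vcam1 (-1.44 to 2.34), 1.43 for Vwf (-0.49 to 3.34), 0.09 for Cldn5 (-0.75 to 0.94) and -0.34 for Pecam1 (-0.90 to 0.22), and Sele was listed at 0 in both groups. This spread between control plates is as large as several of the differences described for IR.

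The order of the group means is given as a description. Selp was highest in MI (256 ± 261 CPM, SD, n = 5) and IR day 1 (102 ± 144 CPM, n = 8), with every other group under 16.4 CPM. Sele had the same top pair, at 56.5 ± 95.7 and 15.1 ± 20.2 CPM. Plvap ran from MI (1067 ± 685 CPM) over IR day 1 (453 ± 531 CPM) and IR day 3 (312 ± 235 CPM, n = 2) to sham day 1. Icam1 was highest in IR day 1 (201 ± 200 CPM) and IR day 14 (166 ± 54.0 CPM, n = 3), and Vcam1 and Vwf in IR day 14 (192 ± 147 and 790 ± 1004 CPM). Icam2 and Cdh5 were highest in sham day 1, Cldn5 in IR day 14, ahead of both sham groups, and Pecam1 in IR day 1. For Icam1, Vcam1 and Vwf no neighbours in the order were separated by more than their SDs.

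**Figure D4:**
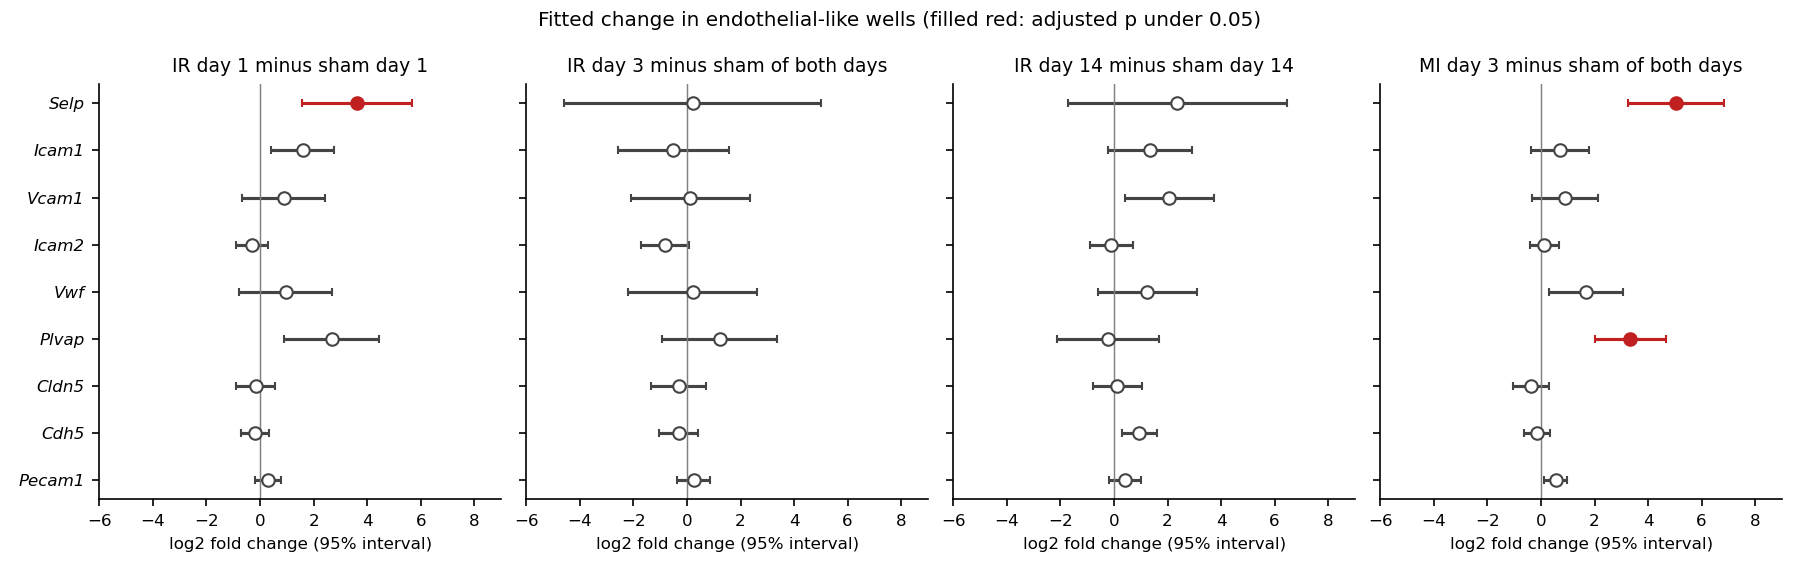
Fitted log2 fold change of the 9 tested genes in endothelial-like wells with its 95% interval, for IR day 1 against sham day 1, IR day 3 and MI day 3 against the sham groups of both days, and IR day 14 against sham day 14. Filled red points passed an adjusted p of 0.05 (edgeR): Selp in IR day 1 (3.62) and Selp and Plvap in MI (5.04 and 3.34).

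The leukocyte counterparts of these adhesion molecules were found mainly in the immune classes. Selplg, which encodes the ligand of P-selectin, was at 1025 CPM in neutrophil-like and 262 CPM in macrophage-like wells, and at 11.5 CPM in endothelial-like wells. Of 12 such partner genes, 6 had their highest level in neutrophil-like and 3 in macrophage-like wells. In endothelial-like wells 5 were tested. Itgb2, the shared chain of the leukocyte integrins (log2 fold change 3.47, adjusted p = 0.0185), and Cd44, a hyaluronan receptor that also binds E-selectin (1.88, adjusted p = 0.0389), were higher in IR day 1. In MI, Itgb2 (2.95, adjusted p = 0.00214), Cd44 (2.35, adjusted p = 0.00112) and Itgb1 (0.77, adjusted p = 0.00862) were higher (edgeR in each). Of all genes tested, 4.96% were called higher in IR day 1 and 16.9% in MI. Over all groups Itgb2 was at 60.0 CPM in endothelial-like, 765 CPM in macrophage-like and 760 CPM in neutrophil-like wells, and Cd44 at 91.7 CPM in endothelial-like, 315 CPM in fibroblast-like, 628 CPM in macrophage-like and 1331 CPM in neutrophil-like wells. Neutrophil markers, 8 genes, summed to 190 and 183 CPM in the endothelial-like wells of the sham groups, 494, 88.0 and 202 CPM in IR day 1, 3 and 14 and 136 CPM in MI. The part of these and of the macrophage and fibroblast markers given above in the values of Itgb2 and Cd44 was not tested.

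Other junction genes fell where Cdh5 and Cldn5 were not called. Of 22 listed junction and barrier genes, 18 had their highest level in endothelial-like wells, and 19 were tested there. On day 1 of IR 4 fell and none rose: Jam2, a junctional adhesion molecule, from 668 to 250 CPM (log2 fold change -1.39, adjusted p = 0.00322), Mllt4, the adaptor afadin (-1.17, adjusted p = 0.00707), Ptrf, the caveolar coat protein cavin-1 (-0.88, adjusted p = 0.0404), and Ctnnb1, the β-catenin that binds VE-cadherin (-0.75, adjusted p = 0.049). Of all genes tested, 5.34% were called lower and 4.96% higher in this comparison, and the median over the 19 was -0.20, against 0.02 for all genes. In MI 5 fell, among them Jam2 (-2.16, adjusted p = 1.79e-06), Ptprb, the phosphatase VE-PTP (-1.67, adjusted p = 1.37e-05), Mllt4 (-1.49, adjusted p = 8.19e-05) and Jam3 (-1.46, adjusted p = 0.00854), and 2 rose, Pvrl2, a nectin (2.76, adjusted p = 0.00013), and Gja4, an arterial connexin (1.84, adjusted p = 0.0257). Of all genes tested in MI, 13.8% were called lower and 16.9% higher. Ptprb is also among the markers that named the class. Over all groups Gja4 was at 125 CPM in mural-like and 100.5 CPM in endothelial-like wells.

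Of 23 listed genes of endothelial activation and Weibel-Palade bodies, 16 were tested. Angpt2, a Weibel-Palade body protein that opposes TIE2 signalling, rose in IR day 1 from 23.2 to 142 CPM (log2 fold change 2.66, adjusted p = 0.0139). It also rose in IR day 3 (2.98, adjusted p = 0.0369) and in MI (1.91, adjusted p = 0.0193, edgeR in each). Over all groups it was at 190 CPM in mural-like, 86.9 CPM in endothelial-like and 81.5 CPM in neutrophil-like wells. The part of such cells in its value was not tested. In MI 5 of the 16 rose, with Edn1, the precursor of endothelin-1 (3.48, adjusted p = 0.00165), and Cd63, a tetraspanin of the same granules (1.99, adjusted p = 3.38e-05), among them. Cd63 was more abundant in fibroblast-like (1174 CPM) and macrophage-like wells (761 CPM) than in endothelial-like wells (277 CPM), and the part of the fibroblast markers, which were also higher in MI, in its value was not tested. Another 4 fell, among them the flow-responsive factors Klf2 (-1.46, adjusted p = 0.0043) and Klf4 (-1.49, adjusted p = 0.00974) and the anticoagulant receptor Thbd (-1.46, adjusted p = 0.00116). These counts stand beside 16.9% of all genes called higher and 13.8% called lower in MI, and the median of the 16 was 0.47 against 0.08 for all genes. In IR day 3 Cd44 (3.14, adjusted p = 0.00872) was the other gene of the lists that was called, and in IR day 14 none was.

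By likeness of pattern over the 26 plate sums, measured as Pearson's r of log2(CPM + 10) among 1973 genes of at least 100 CPM, the genes nearest to Plvap were Tubb5 (r = 0.787), Ptbp1 (0.750) and B4galt1 (0.726). Those nearest to Cdh5 were Tacc1 (0.803), Gpihbp1 (0.689) and Eif4g1 (0.680), and those nearest to Pecam1 were Akt1 (0.815), Sf3b4 (0.772) and Myl6 (0.738). Among the 10 genes, Icam1 and Vcam1 had the highest correlation with each other (0.655), ahead of Selp with Plvap (0.525) and Selp with Sele (0.524). The sums share depth and group, so these are descriptions.

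Endothelial subtypes and platelets could hold some of these genes too. Lymphatic markers (Lyve1, Pdpn, Prox1 and Mmrn1) summed to 393 and 318 CPM in the sham groups, 189, 47.4 and 239 CPM in IR day 1, 3 and 14 and 320 CPM in MI, with Prox1 at 0 in each IR group. Endocardial markers (Npr3, Cytl1, Cdh11 and Nfatc1) summed to 107 and 358 CPM in sham, 182, 169 and 363 CPM in IR and 394 CPM in MI. Platelet markers, which bear on Selp and Vwf because platelets store both proteins, summed to 44.6 and 95.9 CPM in sham, 109, 203 and 48.6 CPM in IR and 123 CPM in MI, and ranged from 0 to 413 CPM between plates. Gp5 was at 0 outside MI. The part of these cells in the values of Selp and Vwf was not tested.

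A further 37 unnamed wells, a part of a split cluster led by Adh1, Ablim3 and Fam101b, also had all 13 endothelial markers raised. They stayed unnamed by rule, since their 10 leading genes held the mural marker Rgs5 and no endothelial marker. They held no UMI of Selp or Sele, 3 UMIs of Plvap, 3 of Vwf and 75 of Cdh5 (400 CPM). None came from MI. Counting them as endothelial, a choice made after seeing the data, added Plvap to the calls of IR day 1 and Vwf and Pecam1 to those of MI.

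In macrophage-like wells 2 of the 10 genes, Icam1 and Selp, were abundant enough to be tested. Neither was called by edgeR or DESeq2, and neither had an unadjusted p under 0.05, between IR day 3 and IR day 1 (background 13.9% of 5115 genes higher and 12.4% lower) or between MI and IR on day 3 (4.52% and 3.87%). Icam1 averaged 70.8 ± 58.1 CPM on day 1 of IR (SD, n = 9), 56.9 ± 15.5 CPM on day 3 (n = 6) and 45.8 ± 4.70 CPM in MI (n = 5), with log2 differences of -0.38 (95% interval -1.15 to 0.38) and -0.35 (-1.06 to 0.36). Selp was at 182 CPM (27 UMIs) in replicate 8 of IR day 1 and at 0 to 6.05 CPM in the other 8 plates.

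In fibroblast-like wells 5 genes were tested between MI and IR on day 3. Vcam1, which had most of its pooled UMIs in these wells, averaged 158 ± 20.2 CPM in MI (SD, n = 5) and 161 ± 77.5 CPM in IR (n = 4). Its log2 difference was -0.15 (95% interval -0.89 to 0.59). Icam1 was at 50.2 ± 10.4 and 49.9 ± 34.9 CPM (-0.26, -1.17 to 0.64). Cdh5 (-3.24, SE 0.85; adjusted p = 0.0142, edgeR) and Pecam1 (-2.73, SE 0.74; adjusted p = 0.0175) were called lower in MI, beside a background of 6.63% of 6444 genes lower and 4.39% higher. Cdh5 was at 0, 10.3, 0 and 91.8 CPM in IR and at 0.85 to 5.26 CPM in MI, so the groups overlapped, and 13 of its 16 UMIs in IR were in replicate 7. Without that replicate both genes were too low to be tested. Of the 74 fibroblast-like wells of IR day 3, 8 held more UMIs of another class's markers than of their own, against 0 of 135 in MI. With such wells left out both calls remained, at -3.05 for Cdh5 (adjusted p = 0.029) and -2.54 for Pecam1 (adjusted p = 0.0378, edgeR in each).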

How the data were processed

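Per the paper's methods and the labels, the authors mapped the SORT-seq reads with BWA-ALN to the mouse genome GRCm38 (mm10) and counted transcripts by UMIs of 6 bases. The deposited tables hold whole UMI counts per gene and well, not normalised. With 4096 UMI sequences of this length, a count in 1 well cannot exceed 4096. Mitochondrial genes were left out of totals and tests. Per the methods, single living cells were selected by scatter at sorting, and no doublet caller was run here.

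Wells with at least 1000 UMIs were scaled to 10000 and clustered in scanpy 1.11.5 (2000 variable genes without the 10 members, 30 principal components, 15 neighbours, Leiden resolution 1). Clusters were named where at least 3 markers of a fixed list were raised. Counts were summed per plate and class over plates with at least 5 wells, and 2 tables of 1 plate entered as their mean. Each class was fitted over all 6 groups with edgeR 4.0.16 (filterByExpr, TMM, quasi-likelihood F test) in R 4.3.3, and genes with a Benjamini-Hochberg adjusted p under 0.05 over all genes tested were called. CPM are UMIs of a gene per 1000000 UMIs of a sum, or of the pooled wells where this is said. A count of 0 allows up to 3 counts of the total. Shares of wells were also computed after thinning each well to 1000 UMIs. Depth was 176614 to 5551870 UMIs per plate.

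The members, the related lists and the tests were chosen with earlier results of these data known. All 10 members were to be named in every endothelial comparison, and Sele got counts only where it was too low to test. Of the related lists, genes past the threshold were named, at most the 6 largest by absolute log2 fold change. Alternatives were DESeq2 1.42.0 (Wald test), its scaling (RLE), no gene filter, other minima of UMIs and wells, members among the clustering genes, copied wells or wells with markers of another class left out, a correction for UMI saturation, fits of only the groups compared, either sham group alone, the replicate number as a block, and each plate left out in turn.

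On simulated counts for IR day 1 against sham day 1 (3314 genes), the edgeR procedure called 21.1% of 2-fold and 77.1% of 4-fold changes, and 4 of 3141 unchanged genes. For MI against sham (3341 genes) these were 38.2%, 91.3% and 3 of 3160. The shares are of changed genes that passed the gene filter. Simulated plates were independent and had the spread that edgeR had fitted. They held no shared animals and no single wells with most UMIs of a gene, so these rates do not cover such errors. Figures were drawn with matplotlib 3.10.9.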

Additional observations from a re-analysis of the deposited data

Results flagged for a closer look

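Of 58 groups of 4 to 10 plates tested for a plate far from the others, 9 were marked, where chance marks about 1 in 20 groups of values without ties. That rate does not hold for groups with most plates at 0, where a single UMI is enough. In each it was the highest plate that stood apart. All values are CPM of the plate sums.

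In endothelial-like wells of the sham groups, Selp was at 10.96 CPM (1 UMI) in replicate 1 of day 14 and 0.0 CPM in the other 3 plates, and Plvap at 195.4 CPM in replicate 1 of day 1 with the next plate at 25.2 CPM. In IR day 1, replicate 8 was apart in Vcam1 (238.5 CPM, next 95.1 CPM) and Vwf (794.9 CPM, next 307.9 CPM), and replicate 9 in Cldn5 (519.0 CPM, next 302.1 CPM). In MI, Sele was at 224.8 CPM in replicate 5, with the next plate at 45.0 CPM.

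Outside endothelium, Selp was at 182.2 CPM in macrophage-like wells of IR day 1 replicate 8, with the next plate at 6.0 CPM. Cdh5 in fibroblast-like wells was at 7.3 CPM (1 UMI) in IR day 1 replicate 6, where the other 4 plates were at 0.0 CPM, and at 91.8 CPM in IR day 3 replicate 7, with the next plate at 10.3 CPM.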

How the results depend on the processing

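Of 1731 values of single genes recomputed under the alternatives, 107 changed sign, none of which was called before or after the change, 9 lost a call and 30 gained one. With the replicate block, for example, Icam1 and Vcam1 in IR day 1 against sham were at -0.05 and -0.06, and Icam1 in MI against sham was at -0.09 without MI replicate 4. In IR day 1 against sham day 1, where 1 member was called, the number called was 0 with DESeq2 and with at least 10 wells per plate. It was 2 with no gene filter, at least 500 UMIs per well, at least 1 well per plate, the members among the clustering genes or the endothelial part of the split cluster included. Leaving out 1 plate in turn gave 0 to 2 (0 without sham replicates 3 or 4 or IR replicate 7, 2 without IR replicates 1 or 4), and without sham replicate 1 Plvap was called in place of Selp. With only the groups compared Plvap was the 1 member called, and Selp was not tested. The plates of IR day 1 were left out, and the split part was included, as alternatives chosen after seeing the data.

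In MI against sham, where 2 members were called, 4 were called with no gene filter, at least 500 UMIs per well, the members among the clustering genes or the split part included, and 2 to 3 when 1 plate was left out. With DESeq2 and with at least 10 wells per plate 3 were called (Pecam1 added), as with at least 1 well per plate (Vwf added) and with wells holding more markers of another class left out (Sele added). With only the groups compared the 3 were Vwf, Plvap and Pecam1, and Selp was not tested. Between MI and IR on day 3 the count rose from 0 to 2 with no filter and to 1 with at least 1 well per plate. In macrophage-like wells, IR day 3 against day 1, it rose from 0 to 3 with no filter. In fibroblast-like wells the 2 calls became 0 with at least 500 UMIs per well or at least 1 well per plate, 1 with at least 2000 UMIs per well, the members among the clustering genes or only the groups compared, and 0 to 2 when 1 plate was left out (0 without IR day 3 replicate 7). Pecam1 was tested and not called with at least 2000 UMIs and with the members among the clustering genes (adjusted p = 0.0878 and 0.107, edgeR). The other fibroblast calls were absent because the gene was too low to be tested. In the other comparisons the count of members called stayed at 0 in every alternative that could be fitted.

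Same-numbered plates of different groups did not deviate together (32 pairs in endothelial-like wells, median correlation of deviations 0.00357, range -0.127 to 0.114), so the numbers were not read as pairs. With the replicate block, 0 members were called in IR day 1, 3 in MI against sham (Vwf beside Selp and Plvap) and 1, Selp, between MI and IR on day 3. The block could not be fitted in fibroblast-like wells.

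Over all genes, IR day 1 against sham day 1 gave 407 calls, against 177 with at least 10 wells per plate, 200 with the block and 269 to 477 when 1 plate was left out. Scaling moved the split of calls. In MI against sham 667 of 1211 genes called were higher, against 557 of 1216 with RLE scaling (median of all genes shifted by -0.132) and 536 of 1198 with DESeq2. In fibroblast-like wells 283 of 710 were higher, against 197 of 692 with RLE scaling (shift -0.109). Under these scalings 1 member value changed sign: Icam2 in MI against sham, not called, went from 0.13 to -0.01 under RLE scaling and DESeq2. What depth limits here is Sele, which had 103 UMIs in all wells, and Selp in sham, which had 1 to 5 UMIs in a group. The wells kept in MI had a median of 13120 UMIs, against 2217 to 3230 in the other groups.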
